A study of Mus musculus with 16 samples.

Results

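The 10 genes described here are Srf, its coactivators Mkl1 and Mkl2, and 7 genes of the actin cytoskeleton: Actb, Actg1, Vcl, Flna, Tpm1, Cnn2 and Tagln. They were taken by symbol, not by measured values, from the 17655 genes listed for mouse preSC, cells that the study calls precancerous for small cell lung cancer. The labels describe them as Chga-positive neuroendocrine cells of the lung that are null for Rb1 and Trp53 and carry 1 null allele of Rbl2. The 8 "empty" samples carry a lentiviral control and the 8 "Wnt5a" samples a lentivirus with Wnt5a, a secreted ligand of non-canonical Wnt signalling. Both groups were given doxycycline (1 µg/mL) over the last 48 hours of culture. The labels do not say whether the lines are clonal or which promoter drives Wnt5a. The empty cells had almost no Rhoa RNA, so the 2 groups differ in a regulator of actin as well as in Wnt5a, and effects of Rhoa and of Wnt5a cannot be told apart. The question addressed is whether actin-linked transcription differed between cells with and without Rhoa RNA.

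SRF is a transcription factor that binds a DNA element called the CArG box. Its coactivators Mkl1 and Mkl2, also called MRTF-A and MRTF-B, are held back by monomeric actin. Active RhoA promotes actin polymerisation through formins and the ROCK kinases, which lowers the pool of monomeric actin and lets the coactivators enter the nucleus. Many targets of this pathway encode actin itself and the proteins that bind, crosslink or anchor it, and Srf is among its own targets. Tagln and calponins are best known from smooth muscle.

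Of the 10 genes, 8 were matched to promoters in RefSeq (GRCm38.p6), Mkl1 and Mkl2 through their newer names Mrtfa and Mrtfb; Actb and Tagln were not matched. The table gives 250 bases before and 50 bases after each start. An exact CArG box on either strand was found for 4 of the 8 genes, namely Srf, Vcl, Cnn2 and Actg1. Over the whole table, 1.63% of 32851 promoters and 1.81% of 27025 genes held such a box. Of 19 other known targets of MRTF and SRF with a promoter in the table, 5 held one. Srf had 2 boxes, which begin 82 and 62 bases before its start; the box of Actg1 begins 90, that of Cnn2 56 and that of Vcl 227 bases before the start. The sequences around the boxes are shown because they are what these members share by sequence; capitals mark the CArG box, and each reads 5′ to 3′ on the strand of its gene. All 4 stretches lie upstream of the gene's start and outside the exons that GENCODE annotates for the 10 genes. Exons of other genes were not examined.
Srf (chr17:46556185-46556274, minus strand): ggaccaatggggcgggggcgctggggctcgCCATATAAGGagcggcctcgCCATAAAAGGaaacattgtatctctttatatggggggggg
Vcl (chr14:20929148-20929210, plus strand): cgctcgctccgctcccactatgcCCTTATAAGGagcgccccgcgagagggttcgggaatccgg
Cnn2 (chr10:79988514-79988583, plus strand): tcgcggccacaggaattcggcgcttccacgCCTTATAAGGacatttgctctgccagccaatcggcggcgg
Actg1 (chr11:120348546-120348615, minus strand): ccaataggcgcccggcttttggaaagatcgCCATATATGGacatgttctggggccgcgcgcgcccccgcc
Vcl and Cnn2 carry the same 10 letters, although at different distances from their starts. The promoters of Mkl1, Mkl2, Flna and Tpm1 held no exact box in this window. A match is a description of the sequence and was not measured as a binding site.

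The values are normalised read counts, that is, reads per gene divided by 1 factor per sample. Recovered totals were 7526676 to 8859862 reads per sample. Samples 1 to 4 of a group agree within or nearly within sampling noise, as do samples 5 to 8, and each set was counted as 1 library, termed A (samples 1 to 4) and B (samples 5 to 8). The labels do not say that the A libraries of both groups were made together. Comparisons therefore rest on 2 libraries per group. The labels do not say that samples came from separate cultures, so p-values measure the spread between these libraries, which may be technical. Wnt5a itself was at 144 (A) and 99.8 (B) in empty cells and 1049 (A) and 1509 (B) with Wnt5a, so it was higher in the group labelled for it. Neuroendocrine markers were expressed, with Chga, the granule protein gene that the label names, between 3007 and 4369.6. Of the 7 smooth muscle markers, 4 were under 10 in every library, and the actin of smooth muscle, Acta2, was at most 0.274. The summed level of that list was 398 to 455, mostly from Smtn. The 6 fibroblast markers analysed summed to 355 and 604 in empty cells and 246 and 249 with Wnt5a, nearly all from Dcn; the collagen genes Col1a1 and Col3a1 were at most 3.56 and 0.254. Summed levels were 3.52 to 5.79 for 3 endothelial, 10.8 to 15.3 for 3 leukocyte and 42.5 to 47.9 for 4 lung epithelial markers. The part of the Dcn shift in the results below was not tested.

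Rhoa was at 4.69 and 0.761 in empty libraries A and B and at 513 and 507 in the Wnt5a libraries. Beside that contrast, the largest of all genes tested, the differences in the members were small. Ranked from lowest to highest over all genes tested, the members tested ran from percentile 11.2 (Mkl1) to 98.5 (Cnn2). On the scale of log2(normalised read count + 1), used for all log2 differences here (Wnt5a minus empty), Srf, Actb, Flna and Tpm1 differed by less than 0.05, and their groups overlapped. The signs of these 4 differences changed when single libraries were left out. Actg1 and Cnn2 were higher and Vcl, Mkl1 and Mkl2 lower in the Wnt5a libraries, without overlap between libraries, but none of these differences passed the threshold. In limma, with p-values adjusted by Benjamini-Hochberg over 12357 genes, 0 of the 9 members tested had an adjusted p under 0.05, against 2.06% of all genes (1.38% higher and 0.672% lower in Wnt5a). At an unadjusted p under 0.05 there were 4 (Actg1, Vcl, Cnn2 and Mkl1), against 16.1% of all genes. The edgeR test called 0 members, against 1.99% of all genes, and DESeq2 called 1, Actg1, against 4.35%. Tagln, with a mean value under 10, was not tested. Cnn2 reached that minimum through its Wnt5a libraries, so its place in these counts is a description. The median log2 difference of the 9 members was 0.0030, beside 0.0026 over all genes tested. In bulk RNA, fewer cells of a type and less RNA per cell cannot be told apart.

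**Figure D1:**
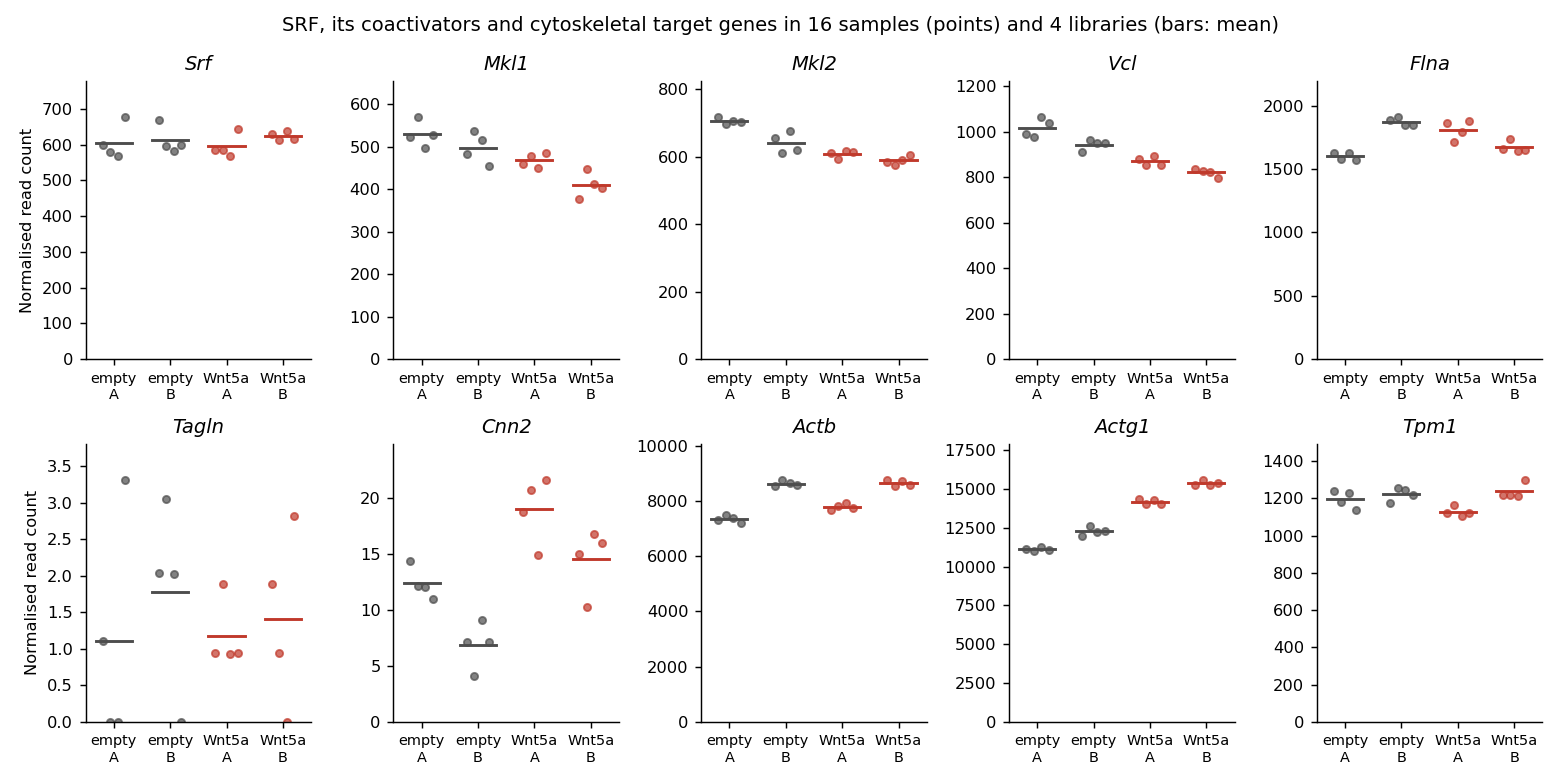
Normalised read count (y axis, from 0) of the 10 genes in each of the 16 samples; points are samples, grey for empty and red for Wnt5a, and bars are the mean of the 4 samples that make up a library. Actg1 and Vcl are the members whose 8 Wnt5a samples do not overlap the 8 empty samples. Samples of a library are not separate replicates.

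Srf, the transcription factor itself, was at 606 and 612 in empty libraries A and B, against 596 and 625 in their Wnt5a counterparts. The Wnt5a values lay on either side of the empty ones. Over samples, the lowest, median and highest values were 568, 598 and 677 in empty and 569, 615 and 645 in Wnt5a cells. Srf differed by 0.0030 in log2 units (SE 0.07; adjusted p in limma 0.990). Its 95% interval, -0.18 to 0.18, corresponds to 0.885 to 1.13 times the empty level. The sign of so small a difference is not readable: median centring of the libraries turned it to -0.02.

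Mkl1, the first of the MRTF coactivators, was at 528 (A) and 497 (B) in empty cells and 468 (A) and 409.7 (B) with Wnt5a. The libraries did not overlap, although single samples did. Mkl1 differed by -0.23 in log2 units (SE 0.09; limma adjusted p = 0.309). Mkl2, its paralog, was at 706 and 639.9 in empty libraries A and B, against 609 and 589 in their Wnt5a counterparts. Here too the Wnt5a libraries were the lower ones, differing by -0.17 in log2 units (SE 0.08; limma adjusted p = 0.403). Neither value was stable in size. Without Wnt5a library B the difference of Mkl1 was -0.13, and without empty library A that of Mkl2 was -0.10. Both differences had the same sign within the A libraries (-0.18 for Mkl1 and -0.21 for Mkl2) and within the B libraries (-0.28 and -0.12).

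Actg1 encodes gamma-actin and Actb encodes beta-actin, the cytoplasmic actins of non-muscle cells. Actg1 was at 11109.6 (A) and 12263 (B) in empty cells and 14169.9 (A) and 15365 (B) with Wnt5a. Every Wnt5a sample (14026 to 15581) lay above every empty sample (10983 to 12591). Samples of a library are not separate replicates, so this rests on 2 libraries against 2. Libraries did not overlap between groups for 44.2% of all genes tested. The log2 difference was 0.34 (SE 0.10; 95% interval 0.10 to 0.57), or 1.26 times the empty level. It did not pass the threshold in limma (adjusted p = 0.157) or edgeR (adjusted p = 0.142), and it did in DESeq2 (adjusted p = 0.026). With 2 libraries against 2, a two-sided exact permutation test cannot give a p under 0.33, which is what Actg1 gave. Actg1 lies on chromosome 11, where the median difference of 1020 tested genes was 0.17; Actg1 lay 0.17 above that median. The chromosome medians of the other 8 members tested were within 0.02 of 0. The part of this chromosome-wide shift in the Actg1 difference was not tested.

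Actb was at 7363 and 8638 in empty libraries A and B, against 7799.6 and 8652 in their Wnt5a counterparts. The B libraries were the higher ones in both groups, and the groups overlapped. Actb differed by 0.04 in log2 units (SE 0.11; 95% interval -0.22 to 0.30; adjusted p in limma 0.912). Per kilobase of transcript, the ratio of Actg1 to Actb was 1.48 and 1.40 in empty cells and 1.79 and 1.75 with Wnt5a, so both Wnt5a libraries were higher. Actin genes share sequence with each other and with pseudogenes, so their counts are uncertain. Of the windows of 50 bases in the longest transcript, 43.3% were unique to Actg1, the rest being shared with other genes, 22 in all and the pseudogene Gm12715 most often, and 85.8% were unique to Actb. Only 30 windows were shared between the Actb and Actg1 transcripts, and the read length is not given in the sources used here.

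Among the proteins that bind actin, Vcl encodes vinculin, which anchors actin filaments at adhesion sites. It was at 1017 (A) and 944 (B) in empty cells and 871 (A) and 822 (B) with Wnt5a. All 8 Wnt5a samples (795 to 893) lay below all 8 empty samples (911 to 1064). This, too, rests on 2 libraries against 2, a separation seen for 44.2% of all genes tested. The log2 difference was -0.21 (SE 0.08; 95% interval -0.40 to -0.02; limma adjusted p = 0.251). Taken by letter, it was -0.22 for A and -0.20 for B. Of the members with a CArG box, as shown above, Vcl was lower, Actg1 (0.34) and Cnn2 (0.78) were higher, and Srf differed by 0.0030. None of these differences passed the limma threshold. Of these, Cnn2 met the minimum value for testing through its Wnt5a libraries, and Actg1 lies on chromosome 11, where the median was 0.17.

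Flna encodes filamin A, which crosslinks actin filaments. It was at 1602 and 1871 in empty libraries A and B, against 1811 and 1672 in their Wnt5a counterparts. Both Wnt5a values lay between the empty ones. By letter, Flna differed by 0.18 (A) and -0.16 (B) on the log2 scale, which left a mean of 0.0075 (SE 0.10; limma adjusted p = 0.981); after median centring it was -0.01. Its 95% interval ran from -0.22 to 0.24. Tpm1 encodes a tropomyosin, which lies along actin filaments. It was at 1196 (A) and 1224 (B) in empty cells and 1129 (A) and 1238 (B) with Wnt5a, and it differed by -0.03 in log2 units (SE 0.08; 95% interval -0.22 to 0.15; limma adjusted p = 0.905). The Wnt5a values of Tpm1 lay on either side of the empty ones.

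Cnn2, a calponin that binds actin, was low in all libraries. It had 45 and 27 reads in empty libraries A and B and 81 and 62 reads in the Wnt5a libraries, that is, 12.4 and 6.88 against 19.03 and 14.5 as normalised read counts. Both Wnt5a libraries were the higher ones, although single samples overlapped. Cnn2 differed by 0.78 in log2 units (SE 0.32; 95% interval 0.02 to 1.54; limma adjusted p = 0.298). The mean of the empty libraries, 9.64, was under the minimum of 10 for testing. The value moved with single libraries. Without empty library A the difference was 1.16 (limma adjusted p = 0.035), in a setting that called 3.99% of all genes. Without empty library B it was 0.40, without Wnt5a library A 0.60 and without Wnt5a library B 0.96, none past the threshold (limma adjusted p = 0.482, 0.654 and 0.529). Tagln, the smooth muscle gene transgelin, had 4 and 7 reads in empty cells and 5 and 6 with Wnt5a, close to the floor of 3 reads per library, which covers counting error only. A difference in Tagln was not detectable at this depth.

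**Figure D2:**
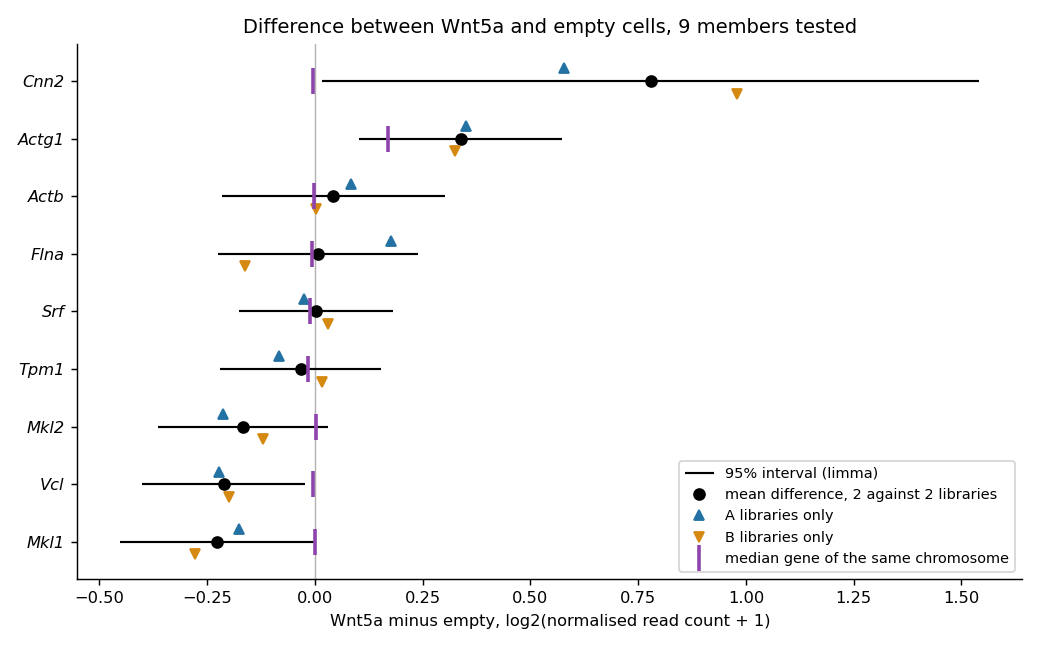
Log2 difference between Wnt5a and empty cells (x axis) for the 9 members tested, ordered by size: points are means over 2 libraries per group, lines are 95% intervals from limma, triangles are the differences within the A or the B libraries and purple ticks are the median of the tested genes on the same chromosome. Flna, Srf and Tpm1 have triangles on both sides of 0, and for Actg1 the tick is at 0.17.

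Libraries did not overlap between groups for 5 of the 9 members tested, 2 higher and 3 lower in Wnt5a, against 44.2% of all genes tested (22.7% higher and 21.5% lower). With 2 libraries per group such separation is common, so this count is near the background. Cnn2, counted among the higher members, met the minimum value for testing through its Wnt5a libraries. The spread between A and B exceeded the log2 difference between groups for Actb (0.04), Flna (0.0075) and Srf (0.0030), within both groups. For Tpm1 (-0.03) it did so within the Wnt5a libraries only (-0.13, A minus B). For Actb it was -0.23 (A minus B, log2 scale) within the empty and -0.15 within the Wnt5a libraries. For Flna it was -0.22 and 0.12, of opposite sign. For Srf it was -0.01 within the empty and -0.07 within the Wnt5a libraries. The former was the smallest within the empty group among the members tested.

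Levels of different genes were compared per kilobase of the longest GENCODE transcript. In the empty libraries Actg1 was highest, at 5987 ± 418 (SD, n = 2) normalised read counts per kilobase, followed by Actb at 4167 ± 469.7. Tpm1 followed at 419 ± 6.81 and Srf at 233 ± 1.58. Flna (205 ± 22.6) and Vcl (186 ± 9.83) came next, and the libraries of this pair overlapped in the empty group. Mkl1 was at 117 ± 5.10 and Mkl2 at 81.1 ± 5.63. Cnn2 (3.92 ± 1.59) and Tagln (0.904 ± 0.300) were far below the rest. The actins thus stood far above the other members, and Cnn2 and Tagln at the bottom. The order was the same in the Wnt5a libraries, where no neighbours overlapped. There Actg1 was at 7565 ± 433 (SD, n = 2), Actb at 4284 ± 314, Tpm1 at 409.6 ± 26.6 and Srf at 233 ± 7.94 per kilobase. Flna was at 206 ± 11.7, Vcl at 161 ± 6.68, Mkl1 at 99.9 ± 9.36 and Mkl2 at 72.2 ± 1.73, followed by Cnn2 (6.82 ± 1.29) and Tagln (0.810 ± 0.104). The places of Flna and Vcl, and of Mkl1 and Mkl2, were exchanged when the coding length or the median transcript length was used.

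**Figure D3:**
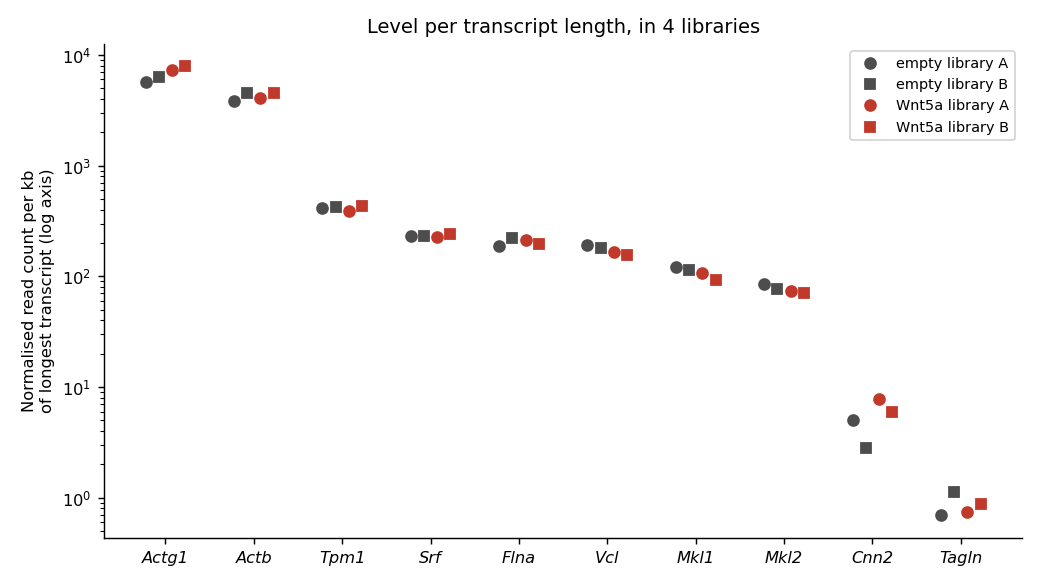
Normalised read count per kilobase of the longest transcript (y axis, log scale) of the 10 genes in each library; circles are A and squares B libraries, coloured by group. The order from Actg1 to Tagln is the same in both groups.

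Upstream of SRF, 29 genes of the path from Rhoa and related GTPases to actin were compared. Rhoa is the gene on which the question turns, and it met the minimum value through its Wnt5a libraries, so its values are a description. Apart from Rhoa, 0 genes of the list were called by limma or edgeR, against 2.06% and 1.99% of all genes, and 1, Cfl1, by DESeq2, against 4.35%. At an unadjusted p under 0.05 there were 3 besides Rhoa (Cfl1, Ssh3 and Arhgdia), where 16.1% of all genes reach that level. The median of the list, Rhoa included, was 0.0084. Rhob, the paralog of Rhoa, was at 621 and 602 in empty libraries A and B, against 657 and 602 in their Wnt5a counterparts. Rhoc was at 299 and 347 against 272 and 275. Neither paralog was called (limma adjusted p = 0.881 and 0.320). Among the most abundant genes of the list, the kinase gene Rock1 differed by -0.10 and the GTPase gene Cdc42 by -0.05 in log2 units (adjusted p in limma 0.759 and 0.881).

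Cfl1, which encodes the actin-severing protein cofilin, was at 2521 (A) and 2853 (B) in empty cells and 3308 (A) and 3726 (B) with Wnt5a. It differed by 0.39 in log2 units (SE 0.10; adjusted p 0.116 in limma and 0.015 in DESeq2), and without empty library B it was 0.48 (limma adjusted p = 0.015), in a setting that called 8.89% of all genes. Without any other single library it was 0.30 to 0.47 and did not pass (limma adjusted p = 0.129 to 0.492). The median log2 difference over tested genes of chromosome 19, which holds Cfl1, was 0.36. Ssh3, a cofilin phosphatase gene named after its values were seen, lies on the same chromosome and was lower in the Wnt5a libraries, by a log2 difference of -0.28 (adjusted p in limma 0.146). Arhgdia, which encodes a GTPase inhibitor and lies on chromosome 11, differed by 0.20 (limma adjusted p = 0.279), against 0.17 for its chromosome. The part of the chromosome-wide shifts in the differences of Cfl1, Ssh3 and Arhgdia was not tested.

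Of 25 further MRTF and SRF target genes, 22 were analysed and 14 were expressed enough to be tested. Of these, 0 were called by limma or edgeR and 2 by DESeq2 (all genes: 2.06%, 1.99% and 4.35%), and 3 had an unadjusted p under 0.05 (all genes: 16.1%). The list's median was -0.0072, with 7 genes higher and 7 lower. The most abundant were Myh9, Actn1, Tpm4 and Tln1, for non-muscle myosin, alpha-actinin, a tropomyosin and talin. Their log2 differences lay between -0.20 (Actn1) and 0.07 (Tpm4), with limma adjusted p-values from 0.411 to 0.803. The 8 genes analysed but not tested, among them Acta1, Acta2, Myl9, Cyr61 and Ctgf, were at most 6.35 in any library.

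The 3 genes with an unadjusted p under 0.05 were Zyx, Cald1 and Thbs1, named after their values were seen. Zyx, for the adhesion protein zyxin, was at 251 and 256 in empty libraries A and B, against 339.8 and 353 in their Wnt5a counterparts. Its log2 difference was 0.45 (SE 0.08), just short of the threshold in limma (adjusted p = 0.0554) and past it in DESeq2 (adjusted p = 0.019). Cald1, for the actin-binding protein caldesmon, was at 129.9 and 194 against 259.7 and 304, a log2 difference of 0.82 (SE 0.19; adjusted p = 0.0983 in limma and 0.0010 in DESeq2). Thbs1, for the secreted protein thrombospondin 1, was at 587 and 839 against 1543 and 1025, differing by 0.84 in log2 units (SE 0.22; limma adjusted p = 0.132). In each of the 3 genes both Wnt5a libraries lay above both empty libraries, as they did for 22.7% of all genes tested. The 3 genes lie on chromosomes 6 (Zyx and Cald1) and 2 (Thbs1), whose medians were -0.01 and -0.0044. Each passed the limma threshold without empty library A (log2 differences 0.44 for Zyx, 0.53 for Cald1 and 0.58 for Thbs1) and without empty library B (0.46, 1.11 and 1.10), settings that called 3.99% and 8.89% of all genes. Without Wnt5a library A none of the 3 passed (0.48, 0.93 and 0.55; limma adjusted p = 0.173, 0.0786 and 0.238). Without Wnt5a library B, Thbs1 passed (1.14; limma adjusted p = 0.014), and Zyx and Cald1 did not (0.42 and 0.71; limma adjusted p = 0.313 and 0.255).

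The second branch of SRF activity runs through the ternary complex factors, encoded by Elk1, Elk3 and Elk4, to immediate early genes. Of 12 genes that encode these factors or belong to the immediate early class, 10 were tested. Of these, 0 were called by limma, edgeR or DESeq2 (all genes: 2.06%, 1.99% and 4.35%), and 2 had an unadjusted p under 0.05, a share near the 16.1% of all genes. The median was -0.06. The 2 genes, named after their values were seen, were the nuclear receptor gene Nr4a1, with a log2 difference of 0.47, and the ternary complex factor gene Elk3, with -0.40 (adjusted p in limma 0.220 and 0.239). Egr1, the zinc finger factor induced by growth signals, was at 393 (A) and 641 (B) in empty cells and 562 (A) and 600.1 (B) with Wnt5a. The groups overlapped (limma adjusted p = 0.722), and the value moved with the empty libraries: without A the log2 difference was -0.14, and without B it was 0.56 (limma adjusted p = 0.0031; 8.89% of all genes called). Mcl1 differed by 0.15, Elk1 by -0.02 and Elk4 by -0.20 in log2 units (adjusted p in limma 0.360, 0.952 and 0.365). Elk4 is a gene of chromosome 1, whose tested genes had a median of -0.17.

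Paralogs of the members were also compared, some of which, such as Tpm4 and Acta2, are among the targets above. Of the 6 paralogs tested, 0 were called by limma, edgeR or DESeq2, with 2 (Cnn3 and Tagln3, named after their values were seen) at an unadjusted p under 0.05, where 16.1% of all genes reach that level, and the median was 0.05. Tagln2, the transgelin of non-muscle cells, was at 3722 and 4199 in empty libraries A and B, against 3357 and 3513 in their Wnt5a counterparts (limma adjusted p = 0.326). Tagln2, too, lies on chromosome 1. Cnn3, a calponin gene, was at 592 and 635 against 712 and 774, differing by 0.28 in log2 units (adjusted p in limma 0.169). Tpm3, a tropomyosin gene, differed by 0.02 in log2 units (adjusted p in limma 0.951). Tagln3 differed by 0.37 in log2 units (adjusted p in limma 0.215). Without empty library B it was 0.47 (limma adjusted p = 0.028), in the setting that called 8.89% of all genes, and without Wnt5a library B 0.22 (limma adjusted p = 0.850).

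**Figure D4:**
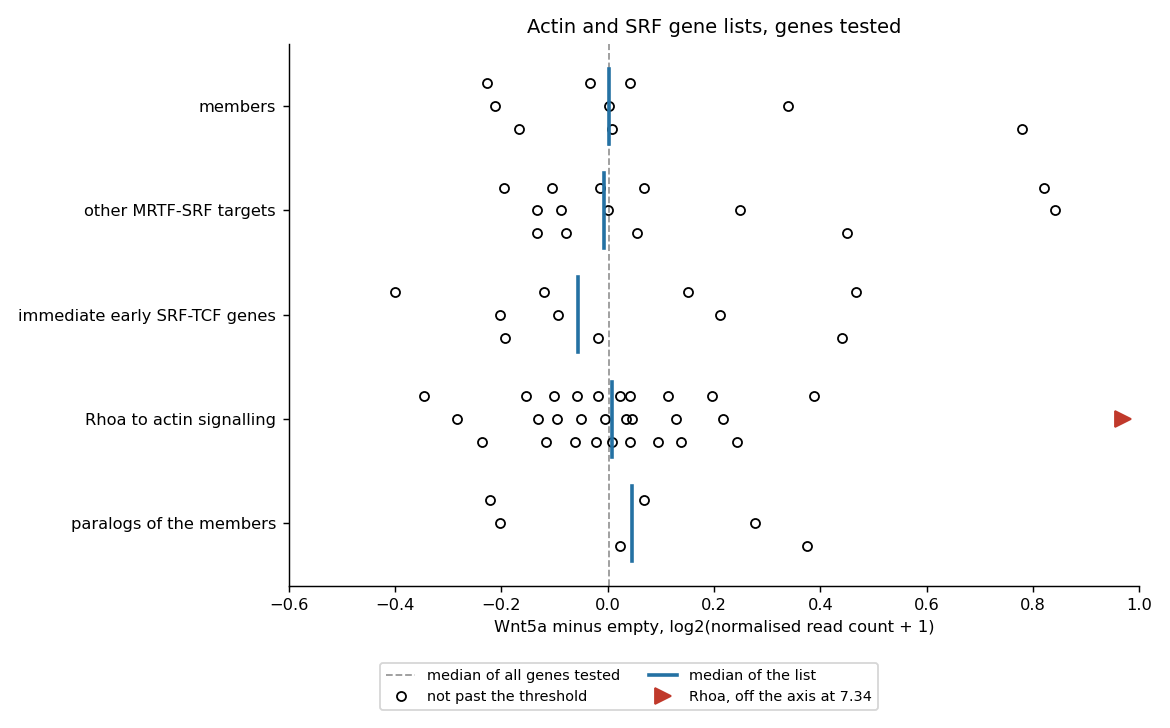
Log2 difference between Wnt5a and empty cells (x axis) of each gene tested in the members and in 4 related lists; circles are genes not past the limma threshold, blue bars the list medians and the dashed line the median of all genes tested. Rhoa, the gene the question turns on, is drawn as an arrow at the right edge because its difference of 7.34 is off the axis. Its call is not read as a result of the list, although the list median includes it.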

How the data were processed

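RNA-seq of 16 samples of mouse preSC, 8 per group, was used. Per the submitters' processing notes, TopHat, Bowtie, HTSeq and DESeq2 were used, without versions; the genome build and the read length are not given in the sources used here. Poly(A) RNA was purified from 500 ng of total RNA per the labels' protocols. The deposited signal is the authors' normalised read count for 17655 genes. Every value was a whole multiple (within 0.01) of a step of 0.934 to 1.11 per sample, so 100% of values gave whole reads. A dispersion index (variance over the Poisson expectation, over genes averaging 10 reads or more) was 0.987 to 1.05 for the 24 pairs within samples 1 to 4 or 5 to 8 of a group, and 5.23 to 5.44 for the other 32 pairs. Below 1.5, samples were counted as 1 library; their mean value was used, which left 2 libraries per group, of 30220749 to 35315408 reads.

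The difference between groups was fitted with limma 3.58.1 (R 4.3.3) on log2(value + 1) for the 12357 genes with a mean value of at least 10, with a trended prior, Benjamini-Hochberg adjustment over all of them and a threshold of 0.05. Recovered reads were tested with edgeR 4.0.16 and DESeq2 1.42.0 as alternatives. Scripts were tested on simulated data. A CArG box was CC, 6 letters A or T and GG. Chromosomes and promoters came from RefSeq, transcript lengths from GENCODE, on GRCm38; 17621 symbols were matched. Related genes named are the 4 of each list with the highest mean, those called, and others said to be named after their values were seen. Some genes that this rule names are not reported here. The members and lists were chosen with earlier results of these data known. Genes of a list without a value here were not analysed here. Intervals and floors cover counting error or the spread between libraries only.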

Additional observations from a re-analysis of the deposited data

How the results depend on the processing

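Of 134 values of the members under alternative settings, 114 kept their direction and their side of the threshold, 10 passed it in the same direction and 10 changed sign. Of 405 for the other named genes, 352, 41 and 12 did so. These 405 include Rhoa and Wnt5a, on which the comparison rests, and the genes named after their values were seen. For the members called (0), the count was 1 with DESeq2 (Actg1), 5 when the 16 samples were taken separately (Mkl1, Mkl2, Vcl, Cnn2 and Actg1), which ignores that samples share a library, and 0 to 1 with a library left out, the 1 being Cnn2 without empty library A. Leaving out a library leaves 1 in its group, which is then assumed to vary like the other group. Taking the 16 samples separately called 35.4% of all genes, the share to set beside each count with 16 samples here. The genes tested numbered 17655 with no filter, 10768 with a minimum of 50 and 12357 in the other settings. Over all genes, 254 were called, against 146 with no filter, 102 with a minimum of 50, 158 without the trend, 538 with DESeq2, 4377 with 16 samples and 138 to 1098 with a library left out. For the other MRTF and SRF targets the counts were 2 with DESeq2, 5 with 16 samples and 0 to 3 with a library left out. For the Rhoa list (1, Rhoa itself) they were 2 with DESeq2 and 11 with 16 samples, Rhoa included in each. For immediate early genes 16 samples gave 4, and for paralogs 4, and a library left out gave 0 to 1 for each. The cause of these changes was not tested.

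With a replicate block for A and B, 3 members were called (Mkl1, Vcl and Actg1, limma adjusted p = 0.035, 0.0225 and 0.0051). So were 4 other targets, 1 immediate early gene, 4 paralogs and 5 genes of the Rhoa list, Rhoa among them. In all, 2095 genes were called, or 17% of those tested. Deviations of same-letter libraries correlated across genes, which are not independent (Pearson 0.44, Spearman 0.53). The labels do not say that the numbers pair samples, so the block was not used for calls.

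Signs near 0 were not stable. Srf was -0.0161 after median centring, -0.00015 in DESeq2 and -0.0316 to 0.0377 with a library left out; Flna was -0.0116 after median centring. With a library left out, the log2 difference ranged from -0.105 to 0.120 for Flna, -0.0725 to 0.158 for Actb, -0.0995 to 0.0329 for Tpm1, -0.0213 to 0.103 for Rhob, -0.178 to 0.0212 for Myh9, -0.0213 to 0.158 for Tpm4, -0.313 to 0.0454 for Tln1, -0.142 to 0.563 for Egr1, -0.0511 to 0.0147 for Elk1, -0.144 to 0.0427 for Cdc42, -0.213 to 0.0128 for Rock1 and -0.107 to 0.154 for Tpm3; the cause was not tested. With 1 mismatch allowed, 7 of 8 members held a CArG box, as did 23.75% of genes. By median transcript or coding length, 6 of 10 places in the order of levels were kept with each. Depth limits Tagln and Cnn2, at 4 to 7 and 27 to 81 reads per library.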
